A study of Mus musculus with 45 samples.

Results

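Untreated neuroepithelial organoids were compared between 42 h and 78 h, the last interval of the time course without retinoic acid (RA), across all genes. The 6 libraries of this comparison, 3 at each time, were taken by their condition and time from the 45 libraries of the series. The organoids were grown in Matrigel and the medium N2B27 from R1 cells, a wild-type mouse embryonic stem cell line, and all times are hours after day 2 of culture. Untreated and RA-treated organoids had the same line, matrix, medium and handling, and the RA-treated groups received 250 nM all-trans RA from day 2 on (the label protocol gives 250 µM, and 68 h and 80 h in place of 66 h and 78 h, and the doses and times of the study's methods and sample titles are used here). The 3 libraries of a group are biological replicates of this 1 line, and no animal or second line entered. All 42 h libraries carry numbers of an earlier library series and all 78 h libraries numbers of a later one, so that time and library series cannot be told apart within these 6 libraries. The untreated organoids of 54 h (2 libraries of the earlier series, 1 of the later) and of 66 h (3 of the later series) were used to follow each difference through time.

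Embryonic stem cells that leave self-renewal without added signals pass through an epiblast-like state and then tend to become neural progenitors. A neural progenitor divides at the inner surface of an epithelial tube, and Notch signalling between neighbours, through target genes of the Hes family, holds most progenitors back while single cells switch on proneural transcription factors and become neurons. Position along the neural tube is set by further signals: RA and FGF act from head to tail through Hox genes. Hedgehog acts from the ventral side and BMP from the dorsal side. RA itself is degraded by the Cyp26 enzymes, so that a tissue can limit its own exposure.

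Levels are given in CPM, read counts scaled to a common library size after TMM normalization, and a gene was called when its log2 fold change between 42 h and 78 h was above 1 or below -1 with an adjusted p under 0.01 in edgeR's quasi-likelihood test. The 42 h libraries held 24970955 to 27479990 counts and the 78 h libraries 26469692 to 36387691, and no pair of replicates among the 12 untreated libraries from 42 h to 78 h was alike enough to be 1 library deposited again. The label was checked against defining markers. Sox2 was at 215 to 224 CPM at 42 h and 213 to 228 CPM at 78 h, and Sox1, an early neural gene, was at 69.5 to 110 CPM and then 150 to 183 CPM. Markers of other tissues were not uniformly low. The endoderm markers Sox17, Gata6, Foxa2 and Afp summed to 0.685 to 0.951 CPM at 42 h and 0.809 to 1.26 CPM at 78 h, and Sox10 (migrating neural crest) and Ptprc (blood) did not exceed 0.668 and 0.0786 CPM. Among surface ectoderm markers, the epithelial keratin genes Krt8 and Krt18 lay between 15.8 and 24.5 CPM in the 6 libraries and Epcam was at 204 to 237 and then 104 to 119 CPM. The endothelial marker Pecam1 was at 25.5 to 30.4 and then 13.8 to 17.9 CPM. The 4 pluripotency markers Pou5f1, Nanog, Zfp42 and Esrrb summed to 713 to 803 CPM at 42 h and still to 407 to 488 CPM at 78 h. In whole organoids, fewer cells of a type and less RNA per cell cannot be told apart.

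Of 16501 genes tested, 876 (5.31%) were called higher at 78 h and 490 (2.97%) lower. In each of these 1366 genes (8.28% of those tested) the 3 libraries of one time were all above the 3 of the other, as was so for 9246 genes (56%) of all those tested. The rises were larger than the falls. More than 4-fold differences were reached by 250 of the genes called higher and by 40 of those called lower, and more than 16-fold differences by 32 and 0. The median log2 fold change was 1.55 among the genes called higher, -1.33 among those called lower and 0.02 over all genes tested. Of the called genes, 163 of the higher and 86 of the lower had a mean under 1 CPM, and their folds rest on few reads. With library series as a term in a fit of the 12 untreated libraries from 42 h to 78 h, 477 of 17353 genes (2.75%) were called higher and 193 (1.11%) lower. The series term itself was called in 2 genes (0.0115%), both ribosomal pseudogenes higher in the later series. Only 54 h holds both series, so this term rests on 1 later library against 2 earlier ones. It could call few genes, and its count says little about the size of a series effect. In the fit with the series term 439 of the 876 and 164 of the 490 kept their call and 4 and 1 had the opposite sign, with medians of 1.45 and -1.23 over the same genes.

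**Figure D1:**
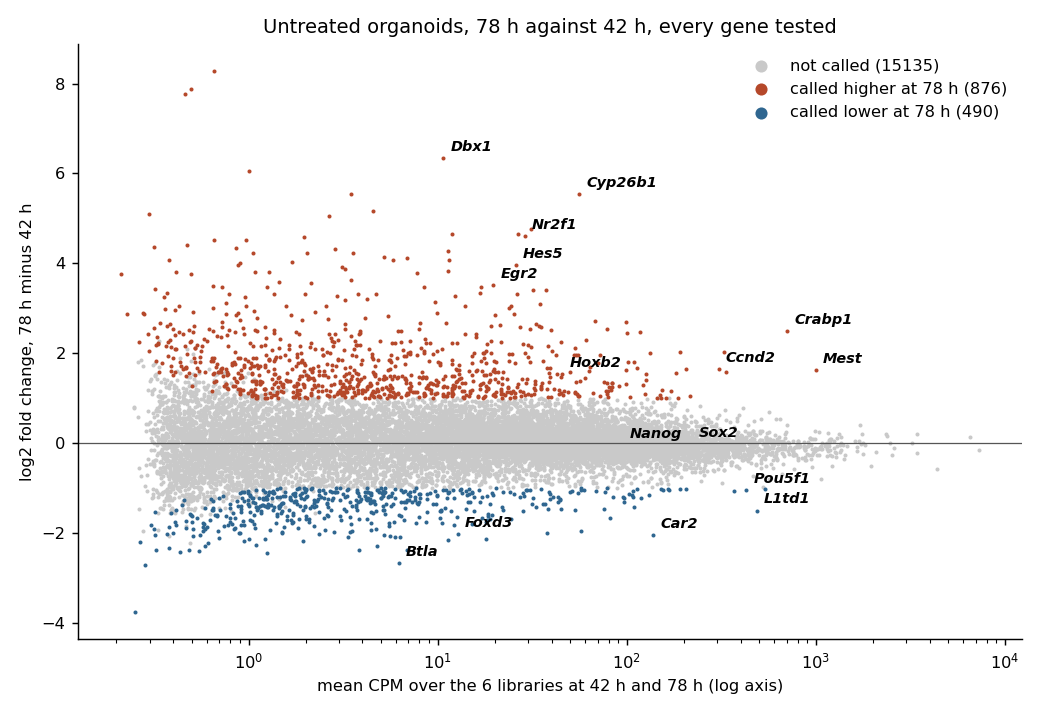
Each point is 1 of the 16501 genes tested, with its mean CPM over the 6 libraries on a log x axis and its log2 fold change (78 h minus 42 h) on the y axis; colours mark the 876 genes called higher and the 490 called lower. The rises reach farther from 0 than the falls, with Dbx1 at 6.34 and Btla at -2.68.

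The 5 highest rises among genes of at least 2 CPM with a named symbol were those of Dbx1, Cp (ceruloplasmin), Cyp26b1, Vit (vitrin, a matrix protein) and the non-coding RNA Pantr1. Dbx1, a homeobox factor of intermediate interneuron progenitors, was at 0.236, 0.304 and 0.216 CPM in the 42 h libraries and at 22.0, 18.4 and 23.1 CPM in the 78 h libraries. It rested on 6 to 8 reads per library at 42 h, and all 78 h libraries were above all 42 h libraries (log2 fold change 6.34 ± 0.18 (SE), edgeR adjusted p = 2.51e-09). Cp had 5, 6 and 0 reads at 42 h and 189, 223 and 248 at 78 h, Vit 5, 10 and 4 and then 204, 295 and 371, and Pantr1 1, 8 and 3 and then 144, 174 and 188. Below these in rank, Pou3f2, a POU factor of neural progenitors and neurons, rose from 2.02 ± 0.59 (SD, n = 3) to 51.3 ± 3.4 CPM, Nr2f1, an orphan nuclear receptor of early neural tissue, from 2.23 ± 0.36 to 55.5 ± 2.9 CPM, and Ednrb, an endothelin receptor, from 2.18 ± 0.41 to 59.9 ± 2.5 CPM. Their log2 fold changes were 4.64, 4.61 and 4.75, with SEs of 0.14, 0.10 and 0.10. In absolute level the highest gains were those of Crabp1 and Mest. Crabp1, a cytoplasmic RA-binding protein, was at 193, 246 and 190 CPM at 42 h and at 1166, 1232 and 1187 CPM at 78 h. Mest, a paternally expressed imprinted gene, went from 484 ± 90 to 1508 ± 117 CPM. Next to them, Ptn (pleiotrophin), Sfrp1 (a Wnt antagonist) and Ccnd2 (cyclin D2) reached 524, 504 and 466 CPM, with log2 fold changes of 2.03, 1.57 and 1.64.

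Many neural progenitor genes rose. Of 24 genes of a list of general neural progenitor genes, 13 (54.2%) were called higher and 1 lower, with a median log2 fold change of 1.17, against 5.31% and a median of 0.02 for all genes tested. Hes5, a Notch target that represses proneural genes, was at 2.48, 3.00 and 3.71 CPM at 42 h and at 44.3, 45.4 and 56.1 CPM at 78 h. The groups were far apart (log2 fold change 3.95 ± 0.13 (SE), adjusted p = 6.47e-09, edgeR). Pax6, a paired-box factor of the neuroepithelium, was at 27.9, 37.9 and 27.3 CPM and then at 94.2, 89.8 and 102 CPM, a log2 fold change of 1.6 ± 0.11. The intermediate filament gene Vim rose from 90.7 to 273 CPM and Nes (nestin) from 139 to 290 CPM. The rise of Nes lay close to the minimum fold (1.04): it dropped to 0.94 without 42 h replicate 1 and to 0.99 without 78 h replicate 3, below the call. Cdh2, N-cadherin, was at 33.2, 62.7 and 46.8 CPM and then at 148, 169 and 191 CPM, again without overlap. Fabp7 and Sox9, both linked to radial glia, rose from 15.4 to 65.0 CPM and from 1.98 to 9.49 CPM. Sox2 (log2 fold change -0.03 ± 0.05) and Sox1 (0.97 ± 0.14) were not called. Sox1 was past the minimum fold without 42 h replicate 2 (1.18) or 78 h replicate 1 (1.04). The one member called lower was Pou3f1, which also marks the epiblast and went from 145 to 69.8 CPM.

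Within the Notch pathway, the genes called were targets and modulators. Of 24 tested genes of the pathway 4 (16.7%) were called higher and 0 lower, against 5.31% and 2.97% of all genes tested. The 4 were Hes5, Hes3, the glycosyltransferase Lfng, which tunes the receptor's choice of ligand, and Nrarp, a feedback inhibitor that Notch itself induces. Nrarp was at 9.27, 10.1 and 9.59 CPM at 42 h and at 29.6, 30.2 and 29.5 CPM at 78 h (log2 fold change 1.6 ± 0.07), with little spread in either group. Lfng went from 8.48, 9.55 and 8.80 CPM to 23.7, 24.9 and 29.3 CPM (1.51 ± 0.09), and Hes3 from 8.37 to 25.7 CPM (1.59 ± 0.11). The ligand gene Dll1 (0.89 ± 0.08) and the receptor genes Notch2 (0.40) and Notch3 (0.41) did not reach the minimum fold. The promoters of 3 of the called genes are shown because Notch acts through the DNA-binding factor Rbpj, whose core site reads TGGGAA. Each runs from 250 bases before to 50 bases after the start of transcription (RefSeq sequence, build GRCm38.p6), with TGGGAA on either strand in capitals:
Hes5, chr4:154960673-154960972, plus strand: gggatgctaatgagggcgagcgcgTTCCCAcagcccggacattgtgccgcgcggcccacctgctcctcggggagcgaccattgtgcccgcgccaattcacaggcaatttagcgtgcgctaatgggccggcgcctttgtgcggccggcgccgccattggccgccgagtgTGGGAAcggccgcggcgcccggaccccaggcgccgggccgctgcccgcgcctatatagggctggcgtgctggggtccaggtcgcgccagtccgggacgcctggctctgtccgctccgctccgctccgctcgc
Lfng, chr5:140607091-140607390, plus strand: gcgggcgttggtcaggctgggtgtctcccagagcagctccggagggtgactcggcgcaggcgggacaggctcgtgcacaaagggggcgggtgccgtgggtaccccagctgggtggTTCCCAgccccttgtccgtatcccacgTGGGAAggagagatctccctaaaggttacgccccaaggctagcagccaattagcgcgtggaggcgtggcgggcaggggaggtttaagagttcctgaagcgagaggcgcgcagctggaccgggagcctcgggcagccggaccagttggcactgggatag
Nrarp, chr2:25180508-25180807, plus strand: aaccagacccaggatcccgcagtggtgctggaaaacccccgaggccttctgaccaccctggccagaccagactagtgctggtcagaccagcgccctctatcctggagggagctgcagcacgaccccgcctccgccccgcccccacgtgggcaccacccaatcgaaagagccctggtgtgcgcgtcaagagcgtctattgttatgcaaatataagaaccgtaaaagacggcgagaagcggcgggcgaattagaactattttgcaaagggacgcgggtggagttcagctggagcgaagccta
The Hes5 promoter held the motif 82 bases before the start as written and 226 bases before it on the other strand, the Lfng promoter 108 bases before the start as written and 135 on the other strand, and the Nrarp promoter held none in this window. The motif is common: it lay in 25.6% of all 32851 promoters, in 23.8% of the promoters of genes called higher and in 26.8% of those of genes called lower. The E-boxes CAGCTG and CAGATG, which proneural factors can bind, lay in 16.3% and 17.2% of all promoters, 20.2% and 13.5% of the promoters of genes called higher and 21.8% and 14.9% of those of genes called lower.

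Proneural and neuronal transcription factors rose from and to low levels. Of 30 tested genes of this list, 15 (50%) were called higher and 0 lower, against 5.31% and 2.97% of all genes tested. The median log2 fold change of the list was 1.22. However, none of those 15 except Onecut2 exceeded 5 CPM on average at 78 h. Neurog1, a proneural factor that starts neuronal commitment, had 1, 3 and 2 reads in the 42 h libraries and 48, 58 and 53 reads at 78 h. Nhlh1, expressed in new-born neurons, was at 0.943, 1.03 and 0.685 CPM and then at 4.86, 4.04 and 5.52 CPM (log2 fold change 2.41 ± 0.21, edgeR adjusted p = 3.91e-06). All 78 h libraries were above all 42 h libraries for both. Neurod4 went from 0.540 to 4.56 CPM. With library series as a term, 7 of the list were called, and Neurog1 (adjusted p = 0.0189, edgeR) was not among them. Genes of neuronal structure and synapses were mixed: 11 of 45 (24.4%) were called higher and 2 lower, and the median was 0.15. Elavl4, a neuronal RNA-binding protein, rose from 2.75, 1.94 and 1.80 CPM to 15, 12.8 and 14.1 CPM (2.66 ± 0.15), and doublecortin (Dcx), a microtubule protein of migrating neurons, went from 1.18, 2.21 and 1.55 CPM to 5.79, 4.97 and 3.93 CPM (1.54 ± 0.23, with an adjusted p of 0.0256 in the fit with library series). Tubb3 was at 54.9 to 62.5 CPM at 42 h and 63.8 to 70.0 CPM at 78 h and was not called (0.15 ± 0.06). The neurofilament gene Nefh fell from 60.4 to 26.5 CPM, and the 6 neuron markers together summed to 246 to 283 CPM at 42 h and 289 to 303 CPM at 78 h.

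**Figure D2:**
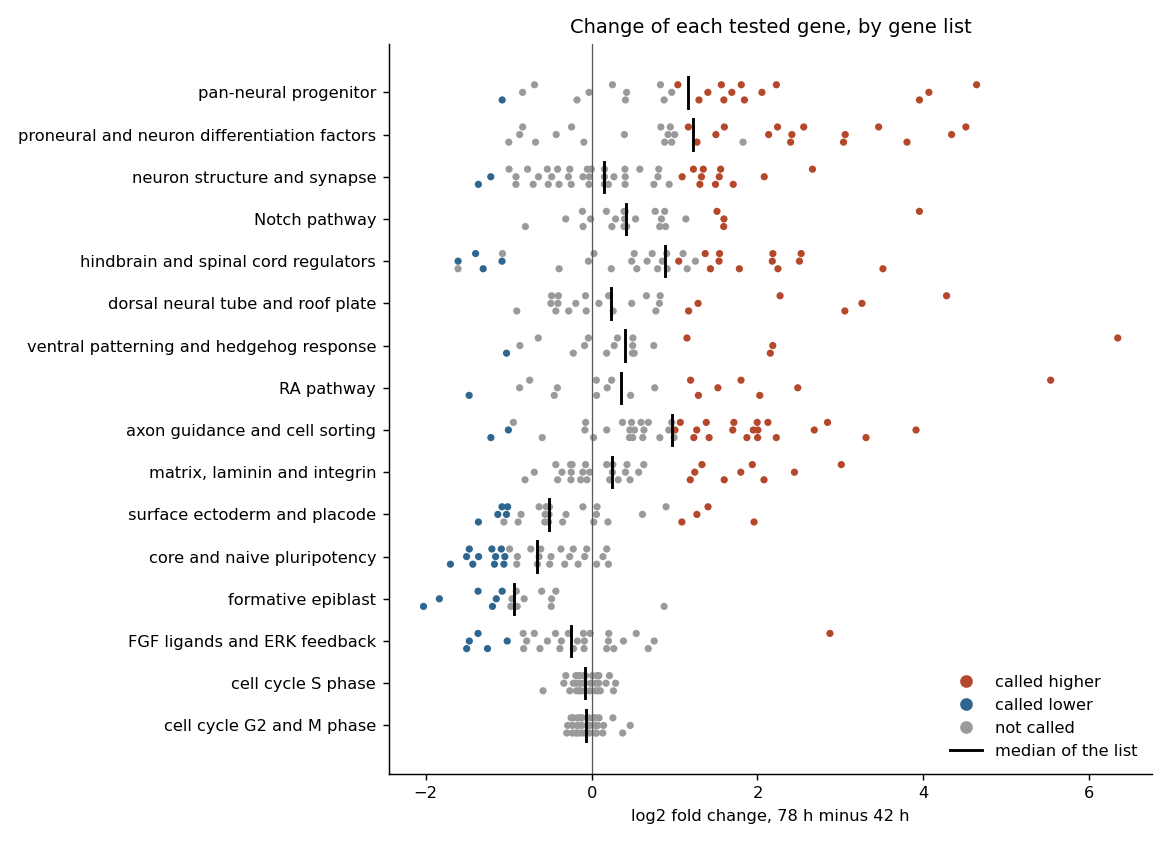
Each point is a tested gene of the named list, at its log2 fold change (78 h minus 42 h) on the x axis; red marks genes called higher, blue genes called lower, grey genes not called, and the black bar is the median of the list. The progenitor (median 1.17) and proneural (1.22) lists lie to the right, the pluripotency (-0.65) and formative epiblast (-0.93) lists to the left, and the cell cycle lists (-0.08 and -0.07) near 0.

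Along the head-to-tail axis, the rises included anterior Hox genes and other genes of the hindbrain. Of 34 tested regulators of hindbrain and spinal cord, 12 (35.3%) were called higher and 4 (11.8%) lower, against 5.31% and 2.97% of all genes. The number called lower was 1 without 42 h replicate 2 or 78 h replicate 1 and 2 without 78 h replicate 2. Egr2 is a zinc finger factor of certain rhombomeres, the segments of the hindbrain. It was at 3.14, 3.42 and 2.81 CPM at 42 h and at 25.7, 29.0 and 54.2 CPM at 78 h. All 78 h libraries were higher, and 78 h replicate 3 was far above the other two (log2 fold change 3.51 ± 0.27, adjusted p = 1.56e-06). Hoxa2, Hoxb2 and Hoxb3, the anterior Hox genes of the hindbrain, rose from 6.74 to 23.6, from 23.1 to 68.2 and from 2.19 to 10.6 CPM, and their cofactor gene Meis1 from 11.7 to 67.5 CPM. Hoxb1, a Hox gene of the fourth rhombomere, went from 32.0 to 53.4, 61.4 and 58.9 CPM over the 4 times and was not called (0.85 ± 0.10). Gbx2, a gene of the early anterior hindbrain, went from 69.6 to 33.5 CPM (-1.08), and the call was lost without 42 h replicate 2 (-0.94) or 78 h replicate 1 (-0.97). Otx2, which marks forebrain, midbrain and epiblast, fell from 141 to 65.0 CPM. Of 14 tested forebrain regulators 3 (21.4%) were called higher and 1 (7.14%) lower. The 3 were each under 3 CPM at 78 h, and none of them was called in the fit with library series. Of 22 tested midbrain and isthmus regulators 6 (27.3%) were called higher and 1 (4.55%) lower. Calls were thus not particular to the hindbrain list.

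Along the dorsoventral axis, dorsal, intermediate and ventral progenitor factors were among the rises. Pax7, a factor of dorsal progenitors, was at 1.02, 1.06 and 1.15 CPM at 42 h and at 21.5, 20 and 22.9 CPM at 78 h, with a tight spread in both groups (log2 fold change 4.28 ± 0.12, adjusted p = 2.51e-09). Pax3, of the same dorsal domain, went from 2.28 to 22.3 CPM (3.26 ± 0.20) and Msx3 from 1.23 to 6.09 CPM (2.27 ± 0.16). In all, 6 of 24 tested dorsal genes (25.0%) were called higher and 0 lower, against 5.31% and 2.97% of all genes tested. The dorsal list did not rise as a whole: its median was 0.23, and 10 of the 24 were below 0. Its summed level was 565.5 to 583.8 CPM at 42 h and 456.1 to 506.5 CPM at 78 h. Of 18 genes of ventral patterning and hedgehog response 4 (22.2%) were called higher and 1 (5.56%) lower, the former including Dbx1 and the ventral factor Nkx6-1 (1.33 to 6.19 CPM). The hedgehog receptor gene Ptch1, a readout of the pathway, was at 101 and 128 CPM and not called (0.31).

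The RA pathway contained 1 of the 3 highest rises among genes of at least 2 CPM. Cyp26b1, which degrades RA, was at 1.69, 2.93 and 2.34 CPM at 42 h, at 8.62, 12.5 and 16 CPM at 54 h, at 43.2, 42.5 and 57.1 CPM at 66 h and at 102, 87.1 and 141 CPM at 78 h. No library of a later time was below one of an earlier time (log2 fold change from 42 h to 78 h 5.54 ± 0.21, adjusted p = 1.42e-08, edgeR). Of 18 tested genes of RA synthesis, binding, response and breakdown, 7 (38.9%) were called higher and 1 (5.56%) lower. For all genes tested these shares were 5.31% and 2.97%. The binding protein genes Crabp1 and Crabp2 rose by 2.49 ± 0.09 and 2.03 ± 0.09 on the log2 scale. The other 2 degrading enzymes were low: Cyp26a1 went from 3.28 to 7.62 CPM and Cyp26c1 from 0.833 to 2.96 CPM, and with library series as a term neither was called (adjusted p = 0.0253 and 0.0340). Rxrg, a retinoid receptor gene, fell from 20.7 to 7.56 CPM. These organoids had received no RA.

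**Figure D3:**
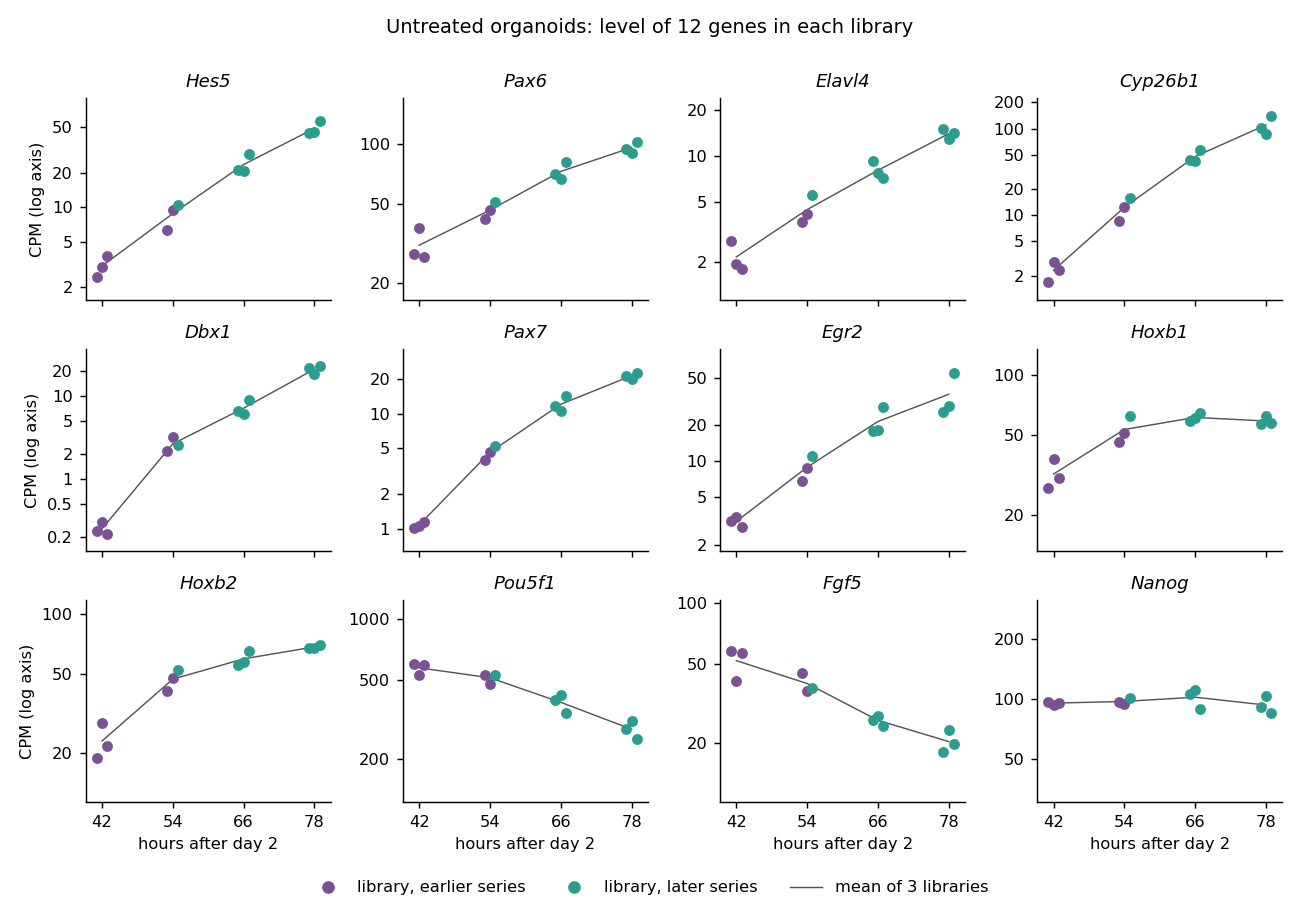
Each panel shows CPM on a log axis for 1 gene in each untreated library at 42 h, 54 h, 66 h and 78 h after day 2; purple points are libraries of the earlier series, green points of the later series, and the line joins the means of 3 libraries. Hes5, Cyp26b1, Dbx1, Pax7 and Egr2 have a higher mean at each time than at the time before, Pou5f1 and Fgf5 are lowest at 78 h, and Nanog lies between 85.0 and 112 CPM.

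Pluripotency and epiblast genes fell by modest amounts and unequally. Of 31 tested genes of core and naive pluripotency, 11 (35.5%) were called lower and 0 higher, and 27 had a log2 fold change below 0. Among all 16501 genes tested 2.97% were called lower and 5.31% higher, and 7949 genes were below 0. Pou5f1 (Oct4) was at 600, 530 and 590 CPM at 42 h and at 285, 310 and 253 CPM at 78 h. The 78 h libraries were all lower, at close to the minimum fold (log2 fold change -1.05 ± 0.08, adjusted p = 1.53e-06, edgeR). Without 78 h replicate 3 it was at -0.96, below the call. L1td1, an RNA-binding protein gene of pluripotent cells, fell from 717 to 257 CPM (-1.51 ± 0.09), Utf1 from 159 to 60.1 CPM (-1.43 ± 0.10) and Dppa2 from 28.8 to 9.05 CPM (-1.70 ± 0.12). Nanog, by contrast, was at 97.0, 93.9 and 95.3 CPM at 42 h and at 91.4, 104 and 85.0 CPM at 78 h. These ranges overlapped, with a log2 fold change of -0.06 ± 0.07. Lin28a, at 1077 and 1036 CPM, was not called either (-0.08 ± 0.06). Among 16 genes of the formative epiblast 6 (37.5%) were called lower and 0 higher. Fgf5, a marker of that state, was at 58.2, 40.9 and 56.4 CPM and then at 18.1, 23.3 and 19.8 CPM (-1.37 ± 0.13), and Foxd3 fell from 20.5 to 5.13 CPM (-2.03 ± 0.13). The DNA methyltransferase gene Dnmt3b, at 1352 and 784 CPM (-0.81 ± 0.07), missed the minimum fold.

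Among FGF ligands and feedback genes of the ERK pathway the calls were mostly falls, whereas of all genes tested 5.31% were called higher and 2.97% lower. Fgf4 was at 116, 95.4 and 122 CPM at 42 h and at 41.4, 44.3 and 36.5 CPM at 78 h (log2 fold change -1.47 ± 0.10). Of 30 tested genes of the list 5 (16.7%) were called lower, namely Fgf4, Fgf5, the inhibitor gene Spry4 (41.6 to 14.9 CPM) and the ETS factor genes Etv4 (55.0 to 23.5 CPM) and Etv5 (202 to 101 CPM). The call of Etv5 (-1.02) was lost without 42 h replicate 3 or 78 h replicate 3 (-0.96 in both). The one member called higher was the receptor gene Fgfr3, which rose from 5.95 to 44.4 CPM (2.87 ± 0.15). In the Wnt list 6 of 30 genes were called higher, among them Wnt7a (0.505 to 6.42 CPM), Sfrp1 and Sfrp2, and the mediator Lef1 was called lower (132 to 58.9 CPM).

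Genes of cell contact moved in both directions. Cdh1, E-cadherin, was at 466, 462 and 560 CPM at 42 h and at 215, 269 and 233 CPM at 78 h (log2 fold change -1.08 ± 0.09, and -0.99 without 42 h replicate 3). Epcam, a cell surface gene of epithelia, went from 219 to 110 CPM (-1.03, and -0.98 and -0.97 without replicate 3 of 78 h and of 42 h). Cdh2 (above), Cdh6 and the apical polarity gene Crb2 rose, the last from 17.9 to 58.0 CPM. Of 41 tested genes of axon guidance and cell sorting 19 (46.3%) were called higher and 2 lower, with a median of 0.97. Across all genes tested 5.31% were called higher and 2.97% lower, with a median of 0.02. Robo2, a receptor for Slit proteins, was at 3.54, 6.28 and 4.36 CPM and then at 47.4, 46.5 and 49.4 CPM (3.31 ± 0.14), and Epha7, a receptor of cell sorting, rose from 26.3 to 172 CPM (2.69 ± 0.13). Of 33 genes of matrix and integrins 9 (27.3%) were called higher and 0 lower, among them Itgb8 (5.20 to 42.6 CPM), Thbs1 (30.6 to 170 CPM) and Col1a1 (3.98 to 17.2 CPM). Among 55 tested protocadherin genes, which give neural cells their contact codes, 15 (27.3%) were called higher and 0 lower. Pcdh17 had the highest rise of them, from 0.537 to 9.82 CPM, and most of the others belong to the Pcdhb cluster, whose near-identical members can share reads.

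Lists of other tissues held calls as well, beside shares of 5.31% called higher and 2.97% called lower over all genes tested. Of 27 neural crest genes 11 (40.7%) were called higher and 1 (3.7%) lower, and their summed level went from 313 to 368 CPM at 42 h to 1436 to 1501 CPM at 78 h, of which Crabp1 alone made up 1166 to 1232 CPM. The members called higher included Nr2f1, Ednrb, Crabp1 and Sox9, which neural progenitors can also express, and Tfap2b, Prrx1 and Alx4. Of the 5 defining crest markers, Foxd3, which the formative epiblast list also holds, was at 18.2 to 23.2 CPM and then 4.35 to 5.71 CPM, Ets1 at 6.2 to 6.96 CPM and then 8.52 to 10.6 CPM, and Sox10, Tfap2a and Snai2 were each under 1.5 CPM in the 6 libraries. Of 28 tested surface ectoderm and placode genes 4 (14.3%) were called higher and 5 (17.9%) lower, the latter 2 without 42 h replicate 3 and 3 without 78 h replicate 3. Of 20 mesoderm genes 7 (35%) were called higher and 2 (10%) lower. Those called higher were Acta2 and Tagln, genes of smooth muscle, the collagen genes Col1a1 and Col1a2, the forkhead genes Foxc1 and Foxf1, and Cdh5, a cadherin of endothelium. Their log2 fold changes ran from 1.36 (Tagln) to 3.32 (Acta2). The calls of Cdh5, Foxc1 and Foxf1 were lost when single libraries were left out, with edgeR adjusted p of 0.0316, 0.0172, 0.0142 and 0.0118 for Cdh5 without 78 h replicate 2 or 3 or 42 h replicate 2 or 3, of 0.0134 and 0.0117 for Foxc1 without 78 h or 42 h replicate 3, and of 0.0145 and 0.0113 for Foxf1 without 78 h replicate 3 or 42 h replicate 2. With library series as a term these 3 genes and, of the crest genes, Tfap2b, Prrx1 and Alx4 were not called. The mesoderm markers T, Tbx6, Kdr, Hand1 and Col1a1 summed to 7.78 to 12.4 CPM and then 19 to 28.9 CPM, of which Col1a1 made up 13.9 to 22.2 CPM at 78 h. The part of such cells in the results was not tested.

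Genes of general cell function differed little. None of 32 tested S phase genes and none of 32 G2 and M phase genes was called by edgeR, and at an unadjusted p under 0.05 4 were higher and 10 lower among the S phase genes and 5 and 12 among the G2 and M phase genes, against 4831 and 4101 of all 16501 genes tested. Mki67, a proliferation marker, was at 489, 458 and 423 CPM and then at 573, 570 and 523 CPM (log2 fold change 0.26 ± 0.07). Of 80 tested ribosomal protein genes 2 were called lower and 0 higher. Ccnd2, which differs from these in being a cyclin of the progenitor G1 phase, rose from 147 to 466 CPM. Enpp2, the secreted enzyme (autotaxin) that makes lysophosphatidic acid and that the study follows in organoid shape, was at 15.3, 17.6 and 16.8 CPM at 42 h and at 9.93, 13.4 and 10 CPM at 78 h. All 78 h libraries were lower, but the difference did not reach the minimum fold (-0.60 ± 0.12, adjusted p = 0.00138, edgeR). The transcript overlaps an antisense gene, as do those of Otx2, Hes5, Nr2f1, Meis1 and Mest, and without a stated strand setting of the counting the reads of both strands may be added up.

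The libraries of 54 h and 66 h, which did not enter the comparison above, were used as a check on the trend. Of the 848 genes called higher at 78 h that were tested between 54 h and 66 h, 813 (95.9%) had a log2 fold change above 0 at that step, against 47.4% of all 16785 genes tested there. Of the 481 genes called lower, 453 (94.2%) were below 0, against 52.6% of all genes. The median log2 fold change of this 12 h step was 0.50 for the genes called higher and -0.51 for those called lower. Within the later series alone, with 54 h replicate 3 as the only 54 h library, 808 of 872 (92.7%, against 49.6% of all genes) and 433 of 484 (89.5%, against 50.4%) had the same direction, with medians of 0.46 and -0.43, and by edgeR 0 genes were called higher and 1 (0.00563%) lower. On its own the step from 54 h to 66 h gave 56 genes called higher (0.334%) and 14 lower (0.0834%), of which 54 and 12 were among the genes called in the same direction at 78 h. These counts rest on few libraries: 20 genes were called higher without 66 h replicate 3, and 23, 26 and 37 without 54 h replicate 1, 2 or 3, while 5, 9 and 24 were called lower without 66 h replicate 3, 54 h replicate 2 or 66 h replicate 1.

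**Figure D4:**
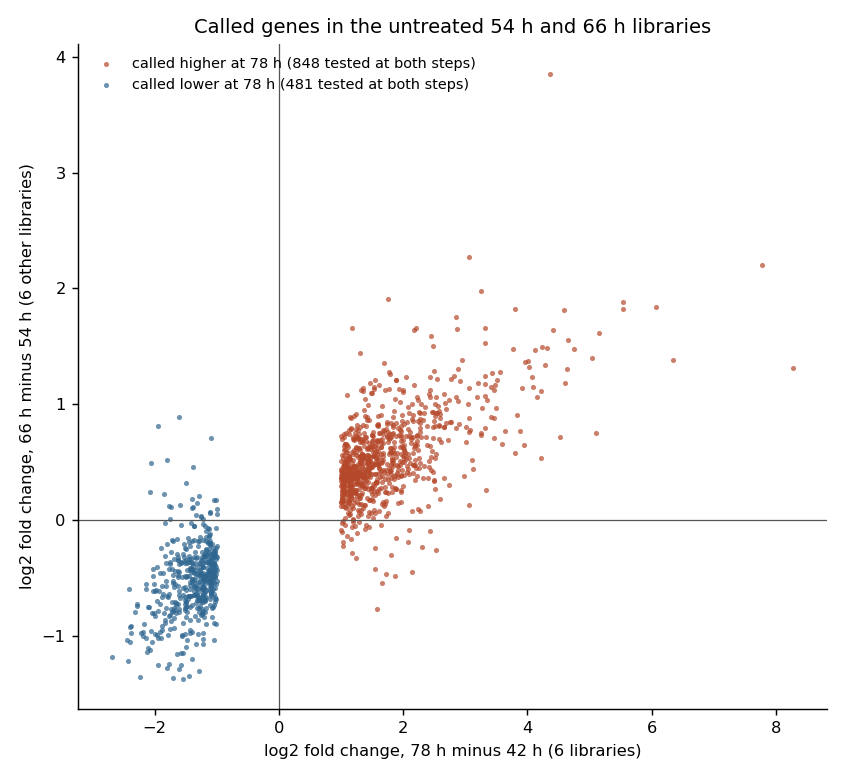
Each point is a gene called between 42 h and 78 h, at that log2 fold change on the x axis and at its log2 fold change between 54 h and 66 h, from 6 other libraries, on the y axis. Of the 848 genes called higher 813 lie above 0 on the y axis and of the 481 called lower 453 lie below 0.

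The steps at either end used libraries of the main comparison and are given only as values. Within the earlier series 19 genes (0.114%) were called higher at 54 h than at 42 h and 0 lower by edgeR, with 1382 and 1241 genes at an unadjusted p under 0.05 and 45 and 1 called by DESeq2. Within the later series 26 genes (0.154%) were called higher at 78 h than at 66 h and 4 (0.0237%) lower. Without 54 h replicate 2 the first count was 4 and without 42 h replicate 3 it was 0. For the last step, 5, 11 and 15 genes were called higher without 66 h replicate 2, 78 h replicate 1 or 78 h replicate 3, with 0, 0 and 1 called lower, and 7 were called lower without 66 h replicate 1. Genes called in that last step included Nhlh2, Neurog1, Nhlh1, Wnt7a and Dcc among the rises. The genes called higher had median log2 fold changes of 0.55, 0.50 and 0.44 over the 3 steps, and those called lower of -0.40, -0.51 and -0.42. At 54 h, the one time with both series, replicate 3 of the later series differed from the mean of the other 2 by a median of 0.10 on the log2 scale for the genes called higher, -0.07 for those called lower and 0.02 for all genes tested. The part of library series in the difference between 42 h and 78 h was not tested beyond the fit with the series term. Among the genes above, this difference was 0.60 for Cyp26b1, 0.42 for Hes5, -0.06 for Dbx1, 0.27 for Pax7 and 0.07 for Pou5f1.

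The RA-treated organoids of 42 h and 78 h come from the same 2 library series, so that the difference between the untreated change and the RA change is free of any series effect that acts alike on both. Of 17647 genes tested, 2224 (12.6%) differed in this sense at an adjusted p under 0.01, 1199 (6.79%) with a higher untreated change and 1025 (5.81%) with a lower one. Between the RA groups alone, 772 of 16702 genes (4.62%) were called higher at 78 h and 440 (2.63%) lower. Of the 876 genes called higher in untreated organoids 367 (41.9%) had a higher change there than with RA and 29 a lower one. The 876 genes were chosen by their untreated change, which enters the interaction from the same 6 libraries. That choice favours a higher untreated change, so the counts of 367 and 29 support nothing by themselves. Of the 876 genes 286 were called higher in the RA-treated organoids too. Cyp26b1 stood at 3.77, 3.32 and 4.40 CPM at 42 h with RA and at 4.29, 5.83 and 2.28 CPM at 78 h with RA, and its change differed by 5.44 ± 0.41 on the log2 scale (adjusted p = 2.85e-07, edgeR). The RA libraries overlapped between the times, unlike the untreated ones. Egr2 was at 0.280 to 1.14 CPM in the RA libraries at both times. Hoxb1 went from 59.1 to 8.74 CPM with RA, and the difference of the changes was 3.61 ± 0.23. Other genes had already reached at 42 h with RA the level that untreated organoids had at 78 h or a higher one: Pax6 was at 148 to 170 CPM, Nr2f1 at 50.3 to 59.3 CPM, Ednrb at 94.7 to 124 CPM and Meis1 at 100 to 114 CPM. In the hindbrain list 18 of 34 genes had a higher untreated change and 1 a lower one.

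Neuronal genes went the other way. Of 30 proneural genes 11 had a lower change in untreated organoids and 0 a higher one, and of 45 genes of neuronal structure 21 and 5. Among all 17647 genes tested for this, 5.81% had a lower untreated change and 6.79% a higher one. Dcx was at 1.49, 1.45 and 0.826 CPM with RA at 42 h and at 40.5, 47.0 and 54.8 CPM with RA at 78 h, against the 3.93 to 5.79 CPM of the untreated 78 h libraries (difference of the changes -3.69 ± 0.35, edgeR adjusted p = 2.65e-06). Nhlh1 reached 17.7 to 23.5 CPM with RA and Tubb3 132 to 146 CPM. For Hes5, which rose to 58.2, 64.7 and 76.2 CPM with RA, a difference of the changes was not detected (0.56 ± 0.24, adjusted p = 0.111). With RA at 42 h, Pou5f1 was at 56.5 to 79.1 CPM and Fgf5 at 0.513 to 1.26 CPM, both under their untreated levels at either time. Of 16 formative genes 10 had a lower untreated change and 0 a higher one, and of 31 pluripotency genes 8 and 2.

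**Figure D5:**
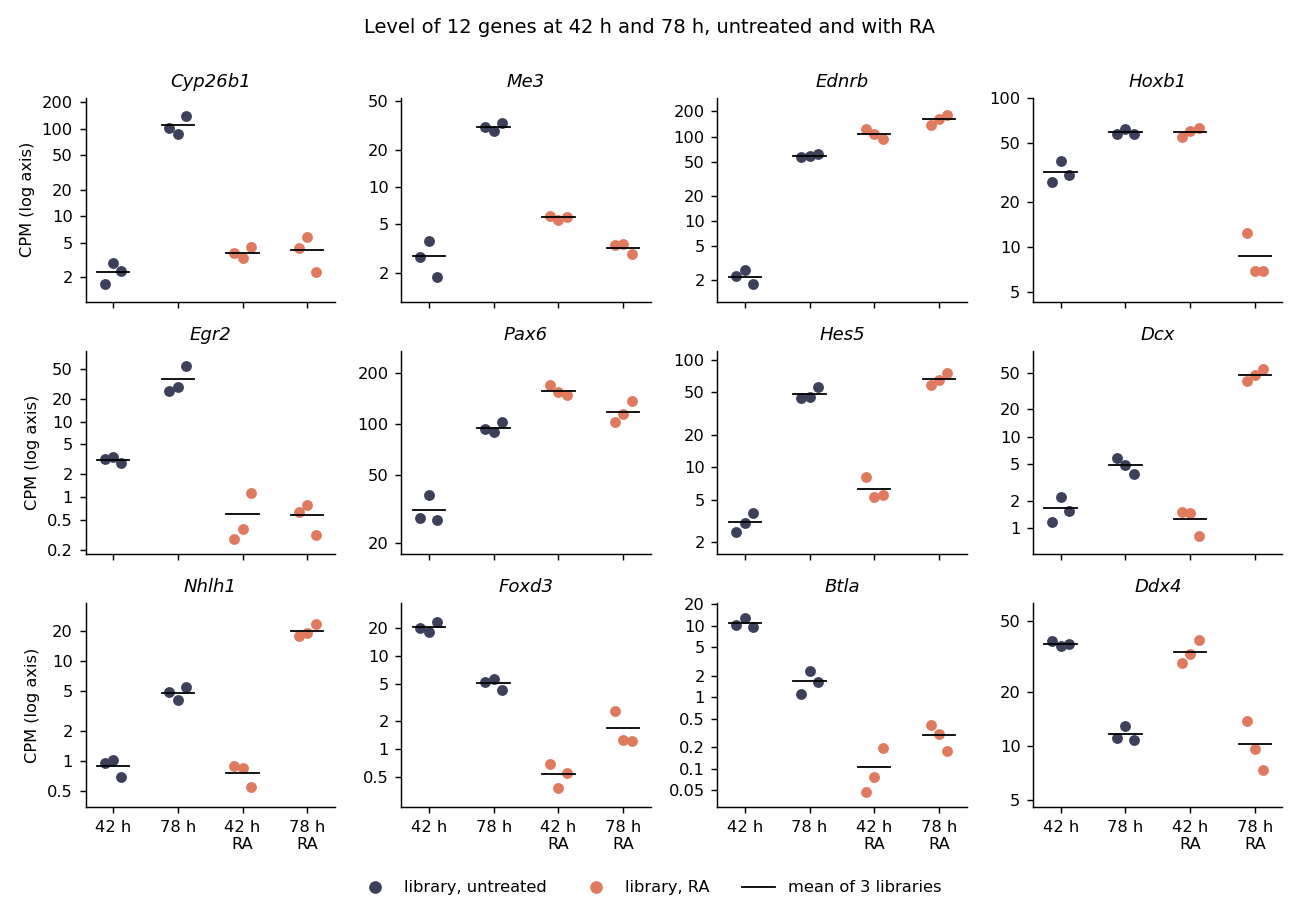
Each panel shows CPM on a log axis for 1 gene in the 3 libraries of each group, untreated (dark) and RA-treated (orange) at 42 h and 78 h; bars are means. Cyp26b1, Me3 and Egr2 are higher in all 3 untreated 78 h libraries than in the other 9, while Dcx and Nhlh1 reach their highest levels in the RA libraries of 78 h.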

How the data were processed

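RNA of untreated and RA-treated organoids was sequenced as poly(A)-selected, strand-specific libraries with single-end reads. The authors trimmed reads with Trim Galore 0.5.0, removed abundant sequences with Bowtie2 2.3.4.1, aligned to GRCm38 with STAR and counted reads with featureCounts (Subread 1.6.2). The deposited values are raw counts per gene, with no normalization and replicates kept apart. The strand setting and the handling of reads with several matches are not given in the sources used here. GENCODE M21 placed 54495 of the 54532 listed genes.

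Counts were tested with edgeR 4.0.16 in R 4.3.3 (TMM, filterByExpr with a minimum count of 10 and a minimum total of 15, glmQLFit, glmQLFTest, Benjamini-Hochberg over all genes tested), each step on its own libraries and the interaction of time and RA on 12. Calls needed an adjusted p below 0.01 and at least a doubling or halving. An SE is the absolute log2 fold change divided by the square root of the F statistic. CPM values were scaled by TMM over all 45 libraries. The code was tested on simulated data. Libraries held 20703819 to 36387691 counts in the groups used. The members and lists were chosen with earlier results of these data known. Named are the 15 largest rises and falls of at least 2 CPM, the 10 largest in CPM, called genes of the lists with up to 3 uncalled members, marker genes, Enpp2, and the 5 rises and 5 falls with the largest interaction. Only some of these are printed, and some items are not reported here. Dll1, the germline genes and the zinc finger genes of chromosome 4 were added after their values were seen. The alternatives used DESeq2 1.42.0, RLE or total-count scaling, other filters, thresholds and fits, library series or replicate as a term, and each library left out.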

Additional observations from a re-analysis of the deposited data

Results flagged for a closer look

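The change from 42 h to 78 h differed between untreated and RA-treated organoids for 2224 genes in the test of the interaction (edgeR, 12 libraries, adjusted p under 0.01). The 5 genes called higher and the 5 called lower in untreated organoids with the largest such differences were looked at more closely. Cyp26b1 (difference of the log2 changes, untreated minus RA, 5.44), which degrades RA, and Me3 (4.31), a mitochondrial malic enzyme, rose in untreated organoids, while with RA Me3 went from 5.42 to 5.87 CPM at 42 h to 2.84 to 3.45 CPM at 78 h. Dbx1 (4.95), Ednrb (4.20) and Cp (4.50), which encodes the copper protein ceruloplasmin, were already expressed with RA at 42 h, at 16.1 to 21.4, 94.7 to 124 and 4.70 to 6.61 CPM. Cp had 5, 6 and 0 reads in the untreated 42 h libraries, and an exon of it overlaps Hps3 on the other strand.

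On the falling side, Btla (-4.09), a lymphocyte receptor gene, was at 9.45 to 12.8 CPM in untreated organoids at 42 h and at 0.0466 to 0.406 CPM in all 6 RA libraries. Foxd3 (-3.69) and its neighbour Gm12688 (-3.72), which lies beside it on the other strand of chromosome 4, fell in untreated organoids and were higher at 78 h than at 42 h with RA, from levels under 0.70 CPM. Syt4 (-4.19), a synaptotagmin, fell from 3.72 to 1.47 CPM untreated and went from 0.229 to 0.280 CPM up to 1.71 to 2.14 CPM with RA. Cdx2 (-3.26), a factor of the trunk and of trophoblast, fell from 5.13 to 1.94 CPM untreated, with 0.935, 1.64 and 3.26 CPM in the 78 h libraries, and went from 1.53 to 2.16 CPM up to 6.28 to 6.83 CPM with RA. The call of Cdx2 between 42 h and 78 h untreated was lost when 42 h replicate 2 or 3 or 78 h replicate 1 or 2 was left out (adjusted p of 0.016 to 0.030) and with library series as a term (0.0445).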

How the results depend on the processing

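Between 42 h and 78 h, the count of genes called higher stayed between 664 and 1051 and that of genes called lower between 447 and 587 under RLE size factors, library totals, other filters, DESeq2, wider fits, a prior count of 2 and a replicate block. It moved further with library series as a term (477 and 193), with the fold minimum dropped and p relaxed to 0.05 (4301 and 3559) and with glmTreat at the same fold (304 and 56). Alternatives added after the data were seen gave 205 and 38 for the sum of the steps within a series, which leaves out 12 of the 36 h by construction, and 487 and 195 for a linear time trend with library series. Leaving out each library in turn gave 769 to 854 higher and 353 to 511 lower. The steps were less stable: without 1 library, 20 to 60 genes were higher and 5 to 24 lower at 66 h than at 54 h, 5 to 36 and 0 to 7 at 78 h than at 66 h, and 0 to 26 and 0 at 54 h than at 42 h. With only 54 h replicate 3 the step to 66 h gave 0 and 1, and DESeq2 gave 45 and 1 for the step from 42 h to 54 h. The interaction gave 1608 to 2225 genes when single libraries were left out. On all 12 libraries it gave 2182 under RLE size factors, 2638 by DESeq2 and 2798 when genes of low count were kept.

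Same-numbered libraries of 42 h and 78 h had correlations of deviations of 0.282, 0.0283 and 0.0867. Those between libraries of different numbers ran from -0.213 to 0.15. Whether the numbers pair the samples was not tested further, and the main comparison treated the libraries as unpaired. With the replicate block 930 genes were called higher and 545 lower, and 1937 differed in the interaction. Of single genes named here, 3 had the opposite sign in some setting, all uncalled: Tubb3 (-0.043 with library series, -0.24 for the sum of steps, -0.038 for the linear trend), Lin28a (0.14 for the sum of steps) and Nanog (-0.13 to 0.015 with 1 library left out, the latter without 78 h replicate 3). The cause was not tested. Library series and time coincide in the 6 libraries, 1 cell line was used, and folds of genes under 1 CPM rest on few reads.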

Other observations

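Germline genes fell together, and a list of them was drawn up after this was seen, so that its count supports nothing by itself. Of 29 tested genes of meiosis and of the piRNA pathway 20 (69.0%) were called lower at 78 h and 0 higher, with a median log2 fold change of -1.51, and 24 of 29 were below 0 between 54 h and 66 h. Among all genes tested 2.97% were called lower at 78 h, and 52.6% were below 0 between 54 h and 66 h. Ddx4, the RNA helicase Vasa, was at 38.3, 35.9 and 36.9 CPM at 42 h and at 11.1, 13 and 10.9 CPM at 78 h. All 78 h libraries were lower (-1.70 ± 0.08, edgeR adjusted p = 4.62e-08). With RA it went from 29.2 to 39.1 CPM down to 7.32 to 13.8 CPM, and no difference of the changes was detected (0.02 ± 0.23, adjusted p = 0.958). Piwil2, a PIWI protein, fell from 13.3 to 4.02 CPM, Mael (Maelstrom) from 12.9 to 4.57 CPM and Tex11, a meiosis gene, from 7.89 to 1.67 CPM, whereas Stag3, a meiotic cohesin subunit (32.3 and 27.4 CPM), was not called and Tdrkh (0.82) had the opposite sign. With RA 14 of the 29 were called lower, against 2.63% of all genes tested there. With library series as a term 10 of the 29 were called lower, against 1.11% of all genes tested in that fit. The motif CACGTG, chosen after the values were seen, lay in 18 of 34 promoters (52.9%) of the 28 list genes with a sequence, against 7.15% of all promoters and 11.7% of those of genes called lower. In the promoters of Ddx4 and Mael, from 250 bases before to 50 bases after the start (RefSeq, GRCm38.p6), it is shown in capitals:
Ddx4, chr13:112652261-112652560, minus strand: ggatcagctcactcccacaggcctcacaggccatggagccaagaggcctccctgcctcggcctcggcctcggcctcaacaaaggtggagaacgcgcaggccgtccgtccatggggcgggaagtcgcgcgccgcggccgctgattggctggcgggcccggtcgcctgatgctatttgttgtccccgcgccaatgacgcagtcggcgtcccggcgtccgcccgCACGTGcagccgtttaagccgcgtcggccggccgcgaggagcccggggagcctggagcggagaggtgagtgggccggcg
Mael, chr1:166238695-166238994, minus strand: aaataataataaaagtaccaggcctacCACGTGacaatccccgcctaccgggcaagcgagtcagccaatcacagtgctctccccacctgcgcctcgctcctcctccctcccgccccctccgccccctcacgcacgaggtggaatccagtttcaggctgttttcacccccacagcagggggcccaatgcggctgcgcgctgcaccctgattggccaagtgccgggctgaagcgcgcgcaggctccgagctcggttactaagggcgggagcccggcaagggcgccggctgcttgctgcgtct
It began 29 bases before the start in Ddx4 and 223 bases before it in Mael.

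A cluster of zinc finger genes on chromosome 4 was the other group picked after its values were seen. The window, chr4:145510759-147702553 (GRCm38), was drawn from the first to the last Zfp gene of chromosome 4 that was itself called lower. Its share of called genes is partly set by that choice and supports nothing by itself. In it 15 of 32 tested genes (46.9%) were called lower and 0 higher, against 2.97% and 5.31% of all genes tested. The genes called lower included 12 of the 16 Zfp genes, while of 335 Zfp genes elsewhere 4 were called lower and 13 higher. Zfp990 was at 234, 141 and 126 CPM at 42 h, at 172, 96.2 and 93.2 CPM at 54 h, at 117, 73.5 and 63.6 CPM at 66 h and at 98.9, 63.8 and 53.6 CPM at 78 h. Replicate 1 was the highest library at each time, and the call was lost without 42 h replicate 1 (-0.93) or 78 h replicate 2 (adjusted p = 0.011). Over the 16 genes the number called lower was 7 to 12 when 1 library was left out (7 without 42 h replicate 1) and 0 with library series as a term. Of the 10 Zfp genes of the window with a promoter sequence, 9 carried a near-identical block close to the start, and 55 of its 80 bases were the same in all 9. A choice of 4 shows how alike these copies are, with bases shared by all 9 in capitals (RefSeq, GRCm38.p6):
Zfp980, chr4:145670610-145670689, plus strand: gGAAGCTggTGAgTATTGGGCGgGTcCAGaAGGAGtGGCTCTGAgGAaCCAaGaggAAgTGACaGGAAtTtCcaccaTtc
Zfp981, chr4:146514811-146514890, plus strand: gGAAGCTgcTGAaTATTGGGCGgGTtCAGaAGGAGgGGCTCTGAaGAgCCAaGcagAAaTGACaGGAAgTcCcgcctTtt
Zfp985, chr4:147553195-147553274, plus strand: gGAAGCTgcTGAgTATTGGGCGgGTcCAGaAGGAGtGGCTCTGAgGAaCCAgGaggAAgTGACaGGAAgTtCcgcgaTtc
Zfp979, chr4:147642516-147642595, minus strand: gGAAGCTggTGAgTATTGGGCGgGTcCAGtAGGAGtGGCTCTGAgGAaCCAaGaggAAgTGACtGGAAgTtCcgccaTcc
The genes are close copies, and their counts depend on how reads with several matches were handled.

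Small shifts in one direction ran through some gene groups with hardly any calls. Of 21 tested genes of cholesterol synthesis and uptake 20 had a log2 fold change below 0 (median -0.44), against 7949 of all 16501 genes tested. Between 54 h and 66 h 21 of 21 were below 0, against 52.6% of all 16785 genes tested there. Of these 21 genes 1 was called lower. Of 31 proteasome genes 27 were below 0, with a median of only -0.10. Of 4 glial markers, Slc1a2, a glial glutamate transporter gene, was at 1.66 to 3.73 CPM at 42 h and 8.39 to 9.39 CPM at 78 h, Aqp4 was at 0.0786 to 0.505 and then 0.575 to 0.743 CPM, S100b did not exceed 0.0558 CPM and Gfap fell from 0.974 to 0.423 CPM.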
